A study of Rattus norvegicus with 12 samples.

Results

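The 4 mitochondrial carriers named for uncoupling, led by *Ucp2*, and 6 enzymes of fatty acid oxidation were measured in the hippocampus of young rats of 2 selectively bred lines. The 10 genes were taken by symbol from the deposited signal table, and each had 1 probe, so 10 of 22523 probes and 10 of 21568 gene symbols entered. The rats were males of generation F15, 14 days old, from the bred High Responder line (bHR, n = 6) and the bred Low Responder line (bLR, n = 6), which were selected for high and low locomotor response to an unfamiliar environment. The labels name no treatment, transgene or litter. Each rat gave 1 Illumina RatRef-12 array from its whole hippocampus, a mixture of neurons, glia and vessels, so fewer cells of a type and less RNA per cell cannot be told apart. *Ucp2* has been named in published work on these lines, possibly from these same arrays, and its difference is not offered here as independent evidence. P-values measure the spread between these rats, some of which may be littermates.

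Uncoupling carriers belong to the family of proteins that move metabolites across the inner mitochondrial membrane. *Ucp1*, the classical member, lets protons leak back in brown fat and so releases heat. *Ucp2* is found in many tissues, microglia and neurons among them, and limits the production of reactive oxygen species, while *Ucp3* is mainly a muscle gene. *Slc25a14* (also called *Bmcp1* or *Ucp5*) and *Slc25a27* (also called *Ucp4*) are carriers of the same family that are abundant in brain. Fatty acids enter mitochondria as carnitine esters made by *Cpt1a* on the outer membrane and turned back to acyl-CoA by *Cpt2* on the inner one. The dehydrogenases encoded by *Acadvl*, *Acadl* and *Acadm*, for very long, long and medium chains, take the first step of each round of oxidation, and *Hadha* encodes the alpha subunit of the trifunctional protein, which carries out later steps on long chains. Brain burns little fat compared with glucose, and most of this oxidation is placed in astrocytes.

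*Ucp3* and *Ucp2* are neighbours on chromosome 1, 10479 bases apart in the GRCr8 assembly with 0 genes wholly between them. Their promoter windows are shown because they are the adjacent pair among the carriers, and that of *Acadvl* because it had the lowest exact p of the 10 genes. Each window runs from 250 bases before to 50 bases after a start annotated for the gene. It is read 5′ to 3′ on the gene's strand and comes from RefSeq (GRCr8). For *Acadvl*, *Slc25a14*, *Slc25a27*, *Cpt1a* and *Cpt2* that start lies inside the outermost bounds of the gene. Capitals mark AGGTCA or its reverse complement TGACCT, the core motif of PPARs and many other nuclear receptors, of which PPARs bind a spaced pair.
Ucp2, chr1:164251123-164251422, plus strand: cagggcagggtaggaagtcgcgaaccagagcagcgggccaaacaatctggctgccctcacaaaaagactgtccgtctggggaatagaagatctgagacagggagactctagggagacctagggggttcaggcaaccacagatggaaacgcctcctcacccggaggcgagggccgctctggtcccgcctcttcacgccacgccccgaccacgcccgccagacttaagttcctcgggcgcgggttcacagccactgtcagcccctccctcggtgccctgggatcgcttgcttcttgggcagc
Ucp3, chr1:164227660-164227959, plus strand: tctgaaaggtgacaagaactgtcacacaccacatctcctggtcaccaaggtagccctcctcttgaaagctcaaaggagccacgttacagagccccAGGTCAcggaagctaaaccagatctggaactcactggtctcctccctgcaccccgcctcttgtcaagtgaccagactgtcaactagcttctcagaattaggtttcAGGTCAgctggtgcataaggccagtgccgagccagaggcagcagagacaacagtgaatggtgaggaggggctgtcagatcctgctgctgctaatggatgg
Acadvl, chr10:55236656-55236955, minus strand: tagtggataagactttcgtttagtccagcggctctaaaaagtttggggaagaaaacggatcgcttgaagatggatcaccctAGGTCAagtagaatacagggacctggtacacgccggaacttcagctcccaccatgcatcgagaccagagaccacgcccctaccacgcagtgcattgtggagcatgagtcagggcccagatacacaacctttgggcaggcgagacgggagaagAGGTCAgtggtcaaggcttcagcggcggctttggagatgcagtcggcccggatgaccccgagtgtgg

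Composition differed between the windows. The *Ucp2* window held 63.3% G and C and 19 CG pairs, that of *Ucp3* 54% and 4 CG pairs, and that of *Acadvl* 55.7% and 16, where the medians over 33465 promoter windows were 51.7% and 7. AGGTCA on either strand occurred 0 times in the window of *Ucp2* and 2 times each in those of *Ucp3*, *Acadvl* and *Slc25a27*. It occurred in 0 of the windows of *Slc25a14*, *Cpt1a*, *Cpt2*, *Acadm* and *Hadha*, and in 16.2% of all windows. The direct repeat of AGGTCA with any 1 base between was found in 0 of the 9 windows at hand and in 0.0538% of all, and GGGCGG, the GC box, was found 3 times each in *Cpt2* and *Acadm*, 2 times in *Slc25a27*, 1 time each in *Slc25a14* and *Hadha*, 0 times in the other 4, and in 33.1% of all windows. A match describes letters only, and the absence of one says nothing about binding. The windows of *Cpt1a* and *Cpt2* lay wholly inside the annotated bounds of these genes, so their counts describe sequence there. *Acadl* was not in the promoter table.

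Array brightness differed between the lines. The mean signal of the arrays ran from 453.3 to 488.3 units on the 3 dimmest arrays, all bHR (replicates 27, 29 and 39), and from 750.1 to 1038 units on the other 9. Values are therefore given as log2 signal after quantile normalisation, which gives all 12 arrays the same distribution of signals, and beside it after centring each array on its median, which keeps the spread of each array as measured. Of 13 measured markers of hippocampal neurons, 11 lay above the median of all probes (log2 6.66), with *Neurod1* and *Prox1*, transcription factors of dentate granule neurons, among them. Replicate 27 of bHR had the lowest mean correlation with the other arrays (0.987, against at least 0.992), and members' results that rest on it are also given without it.

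After quantile normalisation *Ucp2* gave the largest line difference of the 10 genes, while with median centring and without scaling *Cpt1a* did (-0.42 and -0.62, against -0.05 and -0.25 for *Ucp2*). After quantile normalisation it read 11.01, 10.99, 11.11, 10.55, 10.89 and 10.78 in bHR replicates 27, 29, 33, 39, 41 and 47. In bLR replicates 26, 28, 30, 38, 42 and 46 it read 10.69, 10.73, 10.43, 10.64, 10.62 and 10.61. In all, 5 bHR rats thus lay above all bLR rats, and bHR replicate 39, on a dim array, lay within the bLR range. The line means were 10.89 ± 0.20 (SD, n = 6) for bHR and 10.62 ± 0.10 for bLR. They differed by +0.27 ± 0.08 (SE) on the log2 scale or 1.2-fold, with a 95% interval of 1.06 to 1.36-fold. It did not pass the threshold of 0.05 over all probes (limma adjusted p = 0.62; exact two-sided permutation p = 0.022 over the 924 assignments of the 12 rats, where 0.0022 is the smallest possible). By limma's unadjusted p (0.0064) it ranked 227 of 22523 probes, and 1.71% of all probes differed by as much in either direction.

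**Figure D1:**
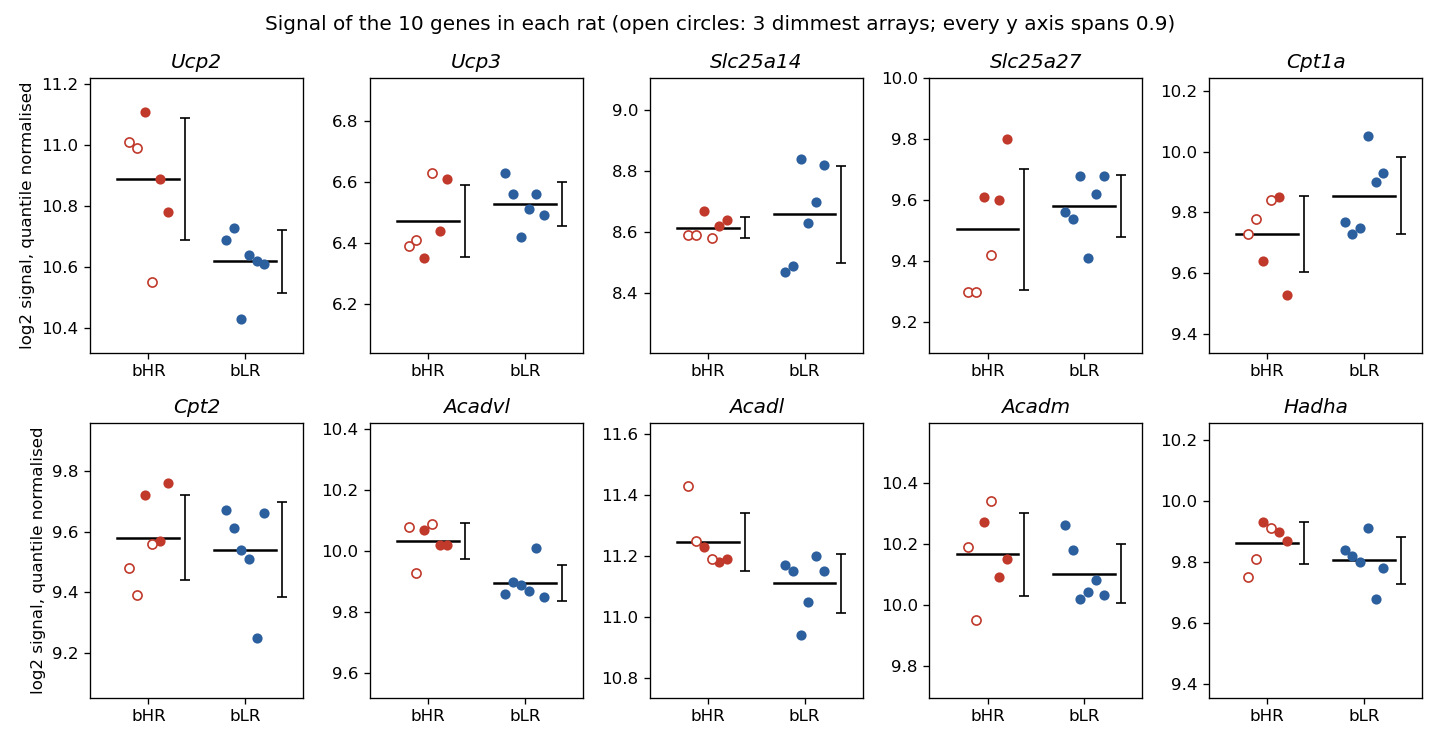
Log2 signal after quantile normalisation (y axis, every panel spanning 0.9 units) of each gene in the 6 bHR and 6 bLR rats (x axis). Filled circles are the brighter arrays and open circles the 3 dimmest, horizontal lines are means and bars SD. *Ucp2* has 5 bHR rats above all bLR rats, *Acadvl* likewise, and the lines overlap for all 10 genes.

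The size of the *Ucp2* difference held when the dim arrays were left out, but its sign depended on how arrays were scaled. Among the 9 brighter arrays, normalised on their own, the 3 bHR rats averaged 11.16 and the 6 bLR rats 10.85, a difference of +0.31, with every bHR rat (at least 11.01) above every bLR rat (at most 10.97). This did not pass limma either (adjusted p = 0.46), and the exact permutation p was 0.012, the smallest that 84 assignments allow. *Acadvl* also separated on these arrays (at least 10.24 in bHR, at most 10.23 in bLR). The share of all probes that separate on them was not counted. For *Ucp2*, centring the same 9 arrays on the median gave +0.28 and no scaling +0.24. Over all 12 arrays, however, median centring gave means of 10.74 ± 0.43 (SD) for bHR and 10.79 ± 0.18 for bLR, which differ by -0.05 (limma adjusted p = 0.84; exact permutation p = 0.78), and no scaling gave -0.25 (limma adjusted p = 0.35).

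**Figure D2:**
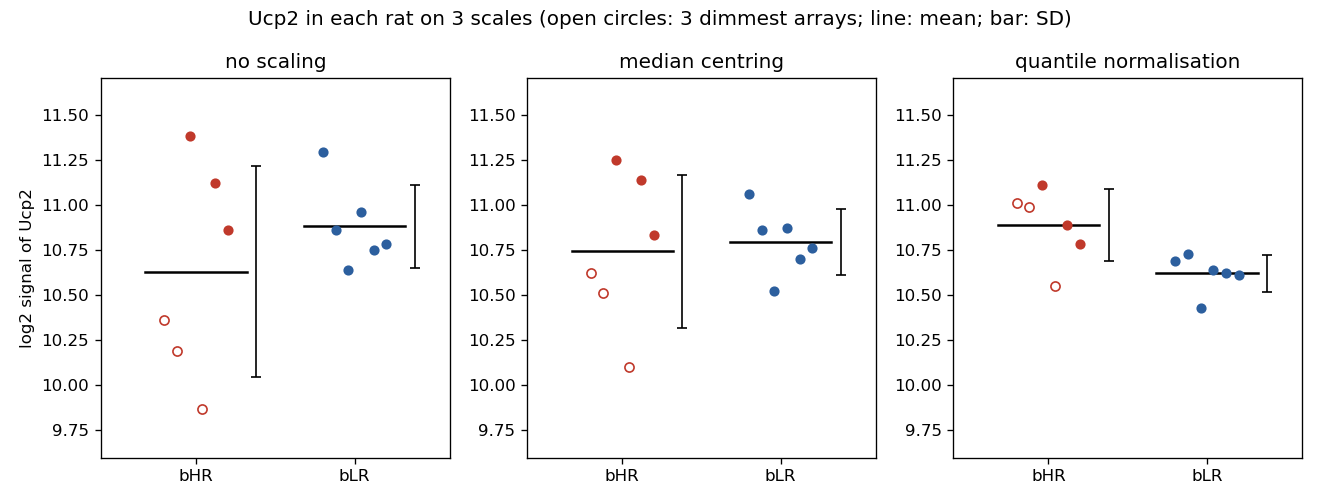
Log2 signal of *Ucp2* (y axis) in each rat of the lines (x axis) without scaling, with median centring and with quantile normalisation. Open circles are the 3 dimmest arrays, lines means and bars SD. The open circles lie below all filled circles without scaling, and with quantile normalisation 2 of the 3 lie above every bLR rat.

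With median centring nearly all probes of similar brightness, like *Ucp2*, were lower in bHR. The raw signal of *Ucp2* was 936.8 to 1315 units on the dim arrays and 1597 to 2666 units on the other 9. Of 3904 probes whose mean lay in the range spanned by the brighter 9 of the 10 genes (log2 8.64 to 11.18), 50.2% were higher in bHR after quantile normalisation and 1.56% after median centring, where their median difference was -0.292. The median of all probes was +0.002 after quantile normalisation, -0.017 after median centring and -0.216 without scaling. Relative to the probes of similar brightness *Ucp2* stood at +0.27 after quantile normalisation and at +0.24 after median centring. The median of these probes of similar brightness was -0.491 without scaling and -0.292 after median centring. Both treatments of dim and bright arrays together thus left them lower in bHR as a class. The cause was not tested.

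**Figure D3:**
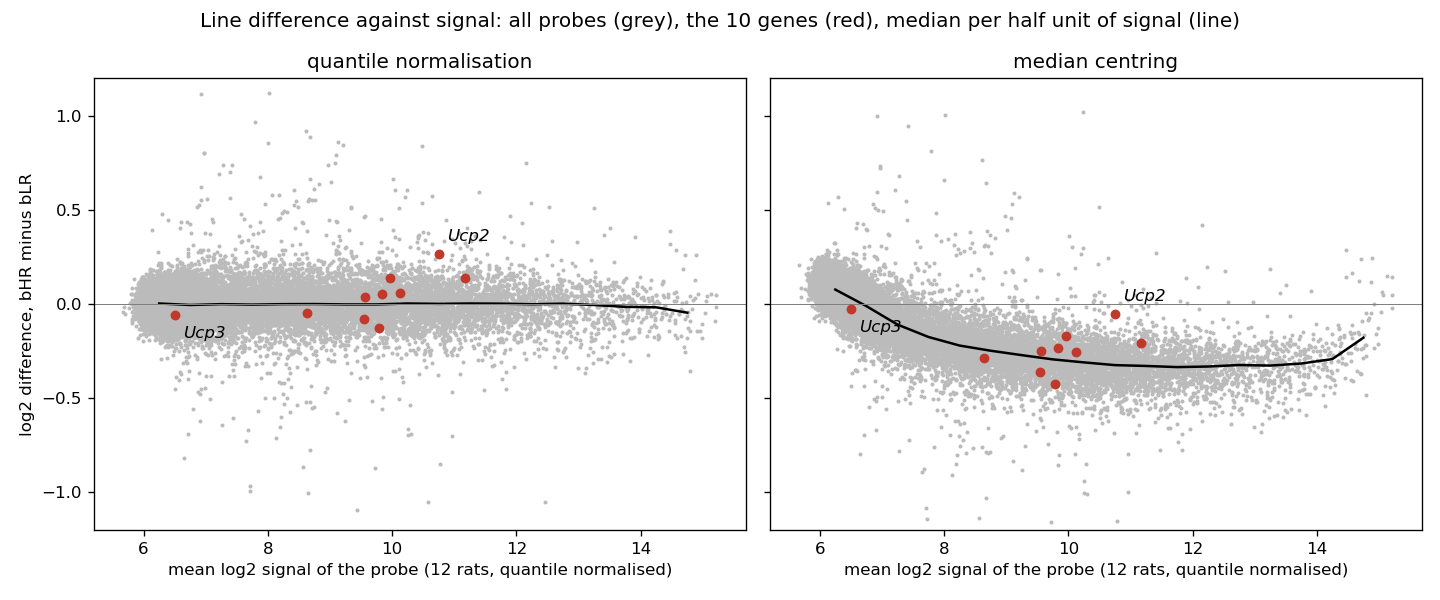
Log2 difference, bHR minus bLR (y axis, cut at 1.2, with 12 and 15 probes outside), against the mean log2 signal of each probe (x axis) after quantile normalisation (left) and median centring (right). Grey points are all probes, red points the 10 genes, and the line the median in steps of signal with at least 20 probes. With median centring the line falls below 0 for bright probes, with a median of -0.292 in the range of the members, and *Ucp2* lies above it in both panels.

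After quantile normalisation the differences of the other 3 carriers were negative and within the spread of the rats. *Ucp3* read 6.35 to 6.63 (median 6.43) in bHR and 6.42 to 6.63 (median 6.53) in bLR, a difference of -0.06 ± 0.06 (SE; limma adjusted p = 0.94; exact permutation p = 0.34). These signals lie below the median of all probes, and whether they exceed background was not tested. Median centring gave a difference of -0.02 for *Ucp3* (limma adjusted p = 0.81). *Slc25a14* read 8.58 to 8.67 (median 8.61) in bHR and 8.47 to 8.84 (median 8.67) in bLR, so that the 6 bHR rats lay inside the bLR range. Its means were 8.62 ± 0.03 (SD, n = 6) and 8.66 ± 0.16, and the difference of -0.04 has a 95% interval of -0.18 to +0.09 (limma adjusted p = 0.95; exact permutation p = 0.51). Median centring gave -0.29 for *Slc25a14* (limma adjusted p = 0.18, exact permutation p = 0.048). Relative to probes of similar brightness that is +0.01.

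*Slc25a27* was lower on the dim than on the brighter bHR arrays. It read 9.30, 9.30 and 9.42 on the dim bHR arrays 27, 29 and 39, and 9.61, 9.6 and 9.80 on the bHR arrays 33, 41 and 47. The bLR rats read 9.41 to 9.68 (median 9.59) and overlapped both sets. Among them the brightest arrays, 26 and 38, read 9.56 and 9.41, both below the bLR median. Over all rats the difference was -0.08 ± 0.08 (SE; limma adjusted p = 0.94; exact permutation p = 0.39), and it was +0.09 among the 9 brighter arrays (limma adjusted p = 0.90). Median centring over all rats gave -0.36 (limma adjusted p = 0.2, exact permutation p = 0.13). Relative to probes of similar brightness that is -0.07. The direction for *Slc25a27* is thus not settled by these arrays.

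In the carnitine shuttle *Cpt1a* was the gene with the lowest values in bHR relative to bLR. It read 9.53 to 9.85 (median 9.76) in bHR and 9.73 to 10.05 (median 9.83) in bLR. All 6 bHR rats lay below the bLR mean, bHR replicates 33 and 47 lay below every bLR rat, and the lines overlapped. The difference was -0.13 ± 0.07 (SE) with a 95% interval of -0.27 to +0.02 (limma adjusted p = 0.84; exact permutation p = 0.12). It was negative under each of 13 alternative settings and with each rat left out, and it was -0.19 among the 9 brighter arrays (limma adjusted p = 0.87). These settings are not independent: a filter on dim probes and trended variances leave the difference unchanged by construction. Of probes of similar brightness, 1.56% were higher in bHR with median centring and 0.666% without scaling, so a negative sign there was common. With median centring the *Cpt1a* difference was -0.42 (limma adjusted p = 0.17; exact permutation p = 0.013), which is -0.13 relative to the probes of similar brightness.

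*Cpt2*, the inner membrane partner, read 9.39 to 9.76 (median 9.56) in bHR and 9.25 to 9.67 (median 9.58) in bLR. The lowest value was that of bLR replicate 42, and the other bLR rats read at least 9.51. The difference was +0.04 ± 0.08 (SE; limma adjusted p = 0.96; exact permutation p = 0.66), and without bLR replicate 42 it was -0.02. The dim bHR arrays averaged 9.47 and the brighter bHR arrays 9.68, against 9.54 in bLR.

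Among the acyl-CoA dehydrogenases *Acadvl* had a smaller difference than *Ucp2* after quantile normalisation, with less overlap between the lines. It read 10.08, 9.93, 10.07, 10.09, 10.02 and 10.02 in bHR replicates 27, 29, 33, 39, 41 and 47. In bLR replicates 26, 28, 30, 38, 42 and 46 it read 9.86, 9.90, 9.89, 9.87, 10.01 and 9.85. Only bLR replicate 42 reached into the bHR range, where bHR replicate 29 was lowest. The means were 10.03 ± 0.06 (SD, n = 6) and 9.90 ± 0.06, a difference of +0.14 ± 0.05 (SE) or 1.10-fold, with a 95% interval of 1.03 to 1.18-fold. With limma the adjusted p was 0.65, so the gene was not called, and the exact permutation p was 0.0043. The difference was the same on the dim and the brighter bHR arrays, both +0.14 against the bLR mean, but it was -0.17 with median centring, which is +0.13 relative to probes of similar brightness.

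*Acadl* read 11.18 to 11.43 (median 11.21) in bHR and 10.94 to 11.20 (median 11.15) in bLR. In all, 5 bLR rats lay below every bHR rat, and the highest bHR value was that of the dim array 27. The difference was +0.14 ± 0.06 (SE) over all rats (limma adjusted p = 0.80; exact permutation p = 0.0087), +0.10 without bHR replicate 27 and +0.09 among the 9 brighter arrays. With median centring it was -0.205, or +0.09 relative to probes of similar brightness. *Acadm* read 9.95 to 10.34 (median 10.17) in bHR and 10.02 to 10.26 (median 10.06) in bLR, a difference of +0.06 ± 0.07 (SE; limma adjusted p = 0.94; exact permutation p = 0.39) with overlapping lines.

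*Hadha* read 9.75 to 9.93 (median 9.89) in bHR and 9.68 to 9.91 (median 9.81) in bLR. The difference was +0.06 ± 0.05 (SE; limma adjusted p = 0.92; exact permutation p = 0.19), with a 95% interval of -0.05 to +0.16, and on the 9 brighter arrays it was +0.10 with an interval of -0.03 to +0.23. *Hadhb*, which encodes the partner subunit, had means of 12.05 ± 0.11 (SD, n = 6) for bHR and 12.02 ± 0.10 for bLR, which differ by +0.02 (limma adjusted p = 0.97). For both subunits the lines overlapped.

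Counted together, 0 of the 10 genes passed limma over all probes, where 0.0888% of all probes passed (0.0311% higher and 0.0577% lower in bHR), and 3 of the 10 (*Ucp2*, *Acadvl* and *Acadl*, all higher in bHR) had an unadjusted limma p under 0.05, which 6.02% of all probes had (3.2% with bHR higher). With median centring 0 of the 10 passed, as against 0.0266% of all probes. There *Cpt1a*, *Slc25a14* and *Slc25a27*, all lower in bHR, had an unadjusted limma p under 0.05 (0.003, 0.021 and 0.046). The share of all probes under 0.05 with median centring was not counted, but such p-values were common in related lists. Under it were 5 of 22 other mitochondrial oxidation genes, 6 of 13 genes of synthesis and uptake and 8 of 13 peroxisomal genes. Ketone body genes had 2 of 5, PPAR and PGC-1 genes 3 of 15, other carriers 7 of 18 and antioxidant genes 6 of 11. After quantile normalisation the lines did not separate fully for any of the 10, and they did for 0.391% of all probes. The members were chosen with earlier results known, so these counts are a description. Of the 10 differences 6 were positive and 4 negative after quantile normalisation, and of the 9 genes above the median signal 0 were positive and 9 negative with median centring, where 1.56% of probes of similar brightness were positive.

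**Figure D4:**
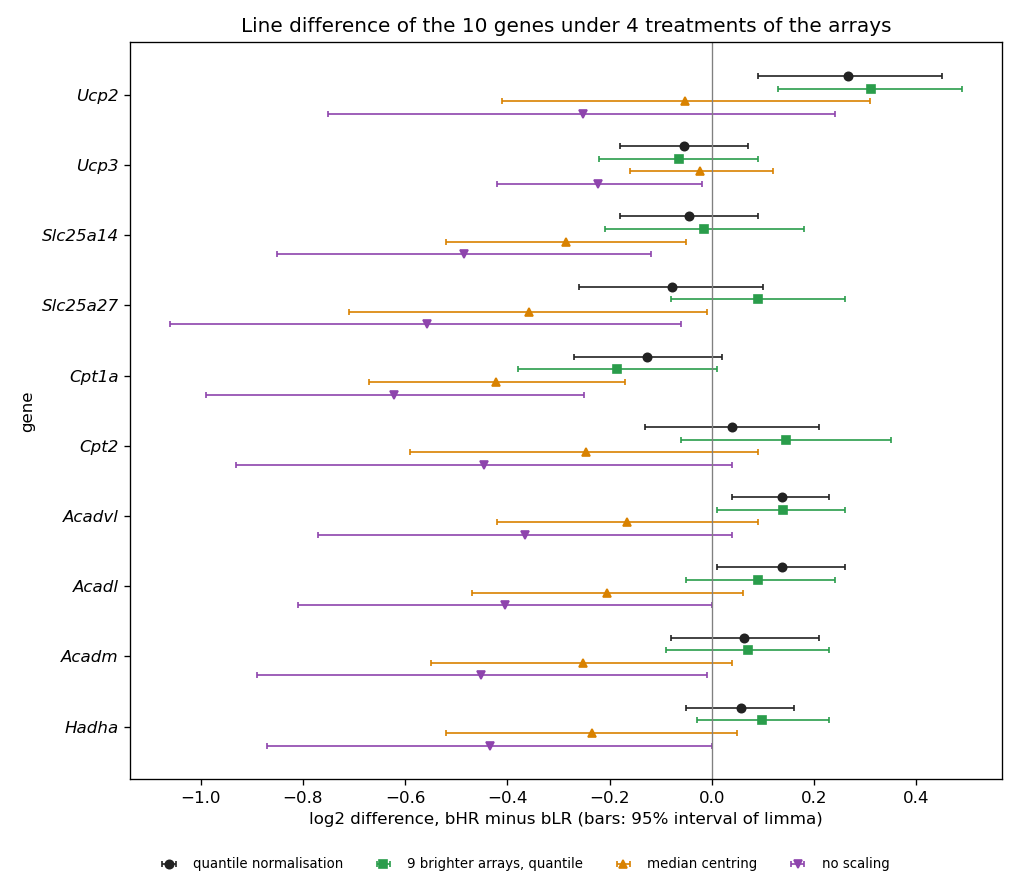
Log2 difference, bHR minus bLR (x axis), with the 95% interval of limma (bars) for each of the 10 genes (y axis) under quantile normalisation, on the 9 brighter arrays, with median centring and without scaling. *Ucp2* is at +0.27, +0.31, -0.05 and -0.25, and *Cpt1a* is negative under all 4.

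Within lines the oxidation genes showed no shared direction after quantile normalisation. After each line's mean was subtracted, the 15 pairs among the 6 fatty acid oxidation genes had Pearson correlations of -0.62 to 0.63 over the 12 rats (median 0.03), and the 6 pairs of carriers had -0.52 to 0.43 (median -0.26). Without bHR replicate 27 these medians were 0.03 and -0.20. With median centring the oxidation genes had correlations of 0.65 to 0.94 (median 0.87), on values that share each array's brightness. *Ucp2* itself correlated with *Acadl* (r = 0.53; Spearman's rho = 0.44) and inversely with *Ucp3* (r = -0.52; rho = -0.47), while its r with the other 7 members lay between -0.29 and 0.02. With median centring its r was -0.34 with *Ucp3*, 0.94 with *Acadl* and 0.60 to 0.86 with the other 7, again on values that share each array's brightness.

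The genes most like *Ucp2* across the 12 rats lay outside these pathways. By the same centred correlation, the 5 highest of 7845 probes above the median signal with a named gene were those of *Dph2*, an enzyme of diphthamide synthesis (r = 0.84; rho = 0.85), *Filip1*, a filamin-interacting protein (r = 0.84; rho = 0.76), *Ppat*, the first enzyme of purine synthesis (r = 0.82; rho = 0.67), *Col9a3*, a chain of collagen IX (r = 0.82; rho = 0.88), and *Zcchc12*, a zinc finger protein (r = 0.81; rho = 0.83). Their own line differences ran from -0.06 to +0.08. Over all these probes the correlation with *Ucp2* had a median of 0.013, with 95% of them under 0.492, and the top ranks of so many probes over 12 rats are high by selection.

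Beyond the members, none of 7 related lists (97 of 106 genes measured) had a gene past limma over all probes, and 6 of the 97 genes had an unadjusted p under 0.05, a share close to the 6.02% of all probes. The counts of direction that follow are those after quantile normalisation, and with median centring every list had more genes lower than higher in bHR, as had probes of similar brightness. Of 22 other genes of mitochondrial fatty acid oxidation, 0 passed limma over all probes, 2 had an unadjusted p under 0.05, and 13 were higher and 9 lower in bHR, with a median of +0.050 against +0.002 for all probes (2 higher and 20 lower, median -0.206, with median centring). *Slc25a20*, which carries acylcarnitines into mitochondria, differed by -0.04 ± 0.16 (SE; limma adjusted p = 0.98), and *Cpt1c*, the neuronal carnitine palmitoyltransferase of the endoplasmic reticulum, by +0.11 ± 0.11 (limma adjusted p = 0.93). The pair with an unadjusted p under 0.05, chosen after their values were seen, were *Acad10*, an acyl-CoA dehydrogenase family member (7.67 to 8.15 in bHR, 7.43 to 7.73 in bLR, difference +0.28 ± 0.08, limma adjusted p = 0.56), and *Etfdh*, which passes electrons from the dehydrogenases to ubiquinone (9.33 to 9.69 in bHR, 9.59 to 9.80 in bLR, difference -0.20 ± 0.06, limma adjusted p = 0.62).

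Fatty acid supply and peroxisomal oxidation had members on both sides. Of 13 genes of acyl-CoA synthesis and fatty acid uptake 6 were higher and 7 lower, with a median of -0.029 (1 and 12 with median centring), and 0 passed limma (1 at an unadjusted p under 0.05, *Slc27a1*, a fatty acid transporter chosen after its value was seen, +0.21 ± 0.09). *Dbi*, the acyl-CoA binding protein and the brightest of them, differed by -0.17 ± 0.12 (limma adjusted p = 0.89). Of 13 peroxisomal genes 8 were higher and 5 lower, with a median of +0.026 (3 and 10 with median centring), and 0 passed (0 at an unadjusted p under 0.05). There *Abcd3*, a peroxisomal importer, differed by +0.10 (limma adjusted p = 0.94).

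Of the 5 measured genes of ketone body metabolism, which turns acetyl-CoA into fuel that can leave the cell, 3 were higher and 2 lower in bHR, with a median of +0.133 and 0 past limma (1 at an unadjusted p under 0.05). With median centring 1 was higher and 4 lower, with a median of -0.186. *Slc16a1*, a transporter of ketone bodies and lactate, read 10.28 to 10.94 in bHR and 10.28 to 10.78 in bLR and differed by +0.13 ± 0.11 (SE; limma adjusted p = 0.90).

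Regulators of the pathway and other carriers also lay on both sides. Of 15 PPAR and PGC-1 regulators and targets 7 were higher and 8 lower, with a median of -0.033 (4 and 11 with median centring), 0 past limma and 1 at an unadjusted p under 0.05 (*Prkaa1*, a catalytic subunit of AMP-activated kinase likewise chosen, -0.38 ± 0.17). *Ppara*, the nuclear receptor that drives these genes in liver, lay below the median of all probes (6.44 in bHR, 6.41 in bLR), *Ppargc1a*, the coactivator PGC-1 alpha, differed by +0.09 ± 0.11 (limma adjusted p = 0.94), and *Sirt3*, the mitochondrial deacetylase, by +0.02. Of 18 other mitochondrial carriers 11 were higher and 7 lower, with a median of +0.051 (3 and 15 with median centring), 0 past limma and 1 at an unadjusted p under 0.05 (*Slc25a15*, an ornithine carrier likewise chosen, -0.23 ± 0.11). *Slc25a4*, the ATP/ADP carrier, differed by +0.12 ± 0.07 (limma adjusted p = 0.86) and *Slc25a22*, a glutamate carrier, by -0.05, while *Ucp1* lay below the median of all probes at 6.08 and 6.02. Of 11 antioxidant genes 5 were higher and 6 lower, with a median of -0.002 (0 and 11 with median centring), 0 past limma and 0 at an unadjusted p under 0.05, and *Gpx4*, which clears lipid peroxides, differed by +0.01.

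**Figure D5:**
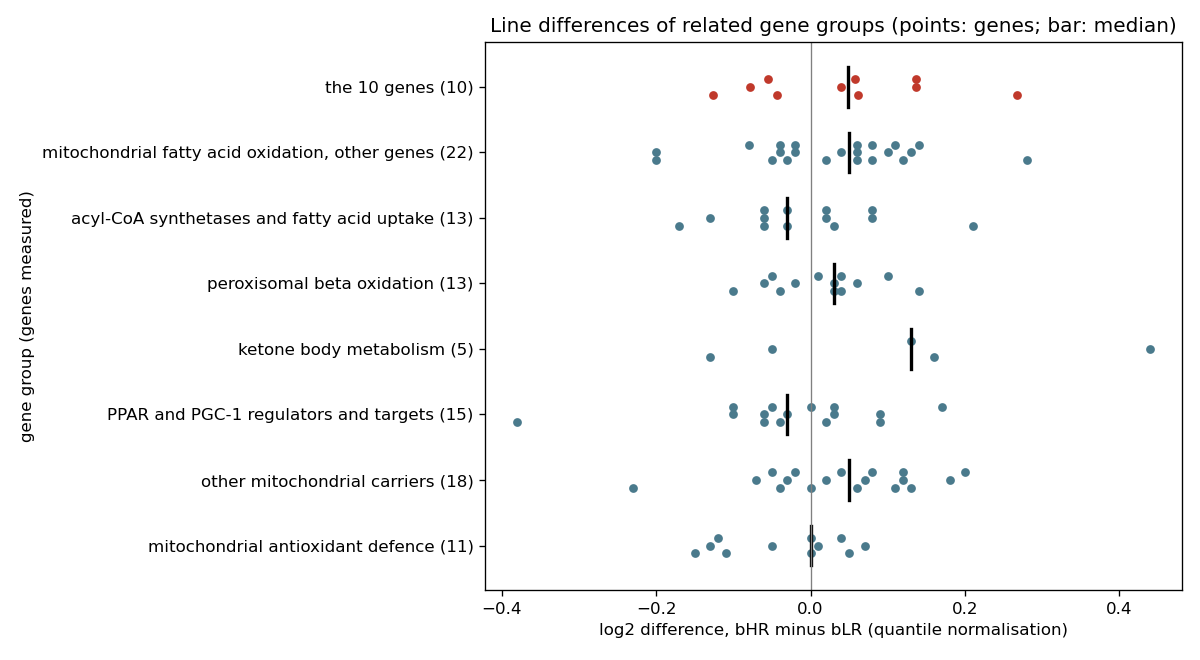
Log2 difference, bHR minus bLR, after quantile normalisation (x axis) of each measured gene in the 10 members and 7 related groups (y axis, number of genes in brackets). Points are genes and black bars medians. The group medians lie between -0.033 and +0.133, the last for 5 ketone genes.

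Markers of the cell types that whole hippocampus can hold are given beside these results, and their part in the differences of *Ucp2* and the other members was not tested. Of 14 microglial markers 4 were higher and 10 lower in bHR, with a median of -0.056, while on the 9 brighter arrays 8 were higher and 6 lower, with a median of +0.022. Their summed signal was 14260 to 16930 in bHR (15890 at the lowest without replicate 27) and 15570 to 17990 in bLR. Of 10 astrocyte markers 4 were higher and 6 lower, with a median of -0.008, and on the 9 brighter arrays 2 and 8, with a median of -0.160. Their sums were 41730 to 61190 in bHR (57450 at the highest without replicate 27) and 43350 to 54090 in bLR. In both types the lines overlapped. Of 13 markers of hippocampal neurons 5 were higher and 8 lower, with a median of -0.012, and on the 9 brighter arrays 2 and 11, with a median of -0.187.

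Of 9 myelin markers 7 were higher and 2 lower, with a median of +0.073 and sums of 17120 to 23430 in bHR (20520 at the highest without replicate 27) and 15610 to 20220 in bLR. On the 9 brighter arrays 6 myelin markers were higher and 3 lower, with a median of +0.036. Of 7 ependymal markers 6 were higher and 1 lower, with a median of +0.180, and on the 9 brighter arrays 7 and 0, with a median of +0.313. Their sums were 1467 to 2529 in bHR (1498 at the lowest without replicate 27) and 1553 to 1955 in bLR. Of 10 choroid plexus markers 5 were higher and 5 lower, with a median of +0.004, and on the 9 brighter arrays 7 and 3, with a median of +0.251. Choroid plexus sums varied most between rats, from 7528 to 57760 in bHR and 19900 to 52810 in bLR. The lowest were those of bHR replicates 27 and 41 (7528 and 7955), in which *Ucp2* read 11.01 and 10.89. In bHR replicates 29, 33, 39 and 47 the sums were 20930, 56530, 52050 and 57760, and *Ucp2* read 10.99, 11.11, 10.55 and 10.78. A relation between the choroid plexus sums and *Ucp2* was not tested. With median centring the medians of all 6 types were negative. Endothelial and pericyte markers, 7 in all, had 1 higher and 6 lower (median -0.038), and 0 and 7 on the 9 brighter arrays (median -0.086). Blood cell markers, 6 in all, had 2 higher and 4 lower (median -0.145), and 3 and 3 on the 9 brighter arrays (median -0.012). Median centring gave medians of -0.233 and -0.136 for these 2 lists. Of 6 markers of brown fat and muscle, *Cidea*, *Adipoq*, *Fabp4* and *Ckm* lay below the median of all probes, and the muscle genes *Acta1* (9.79 in bHR, 9.80 in bLR) and *Myl1* (8.11 and 8.13) above it.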

How the data were processed

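Hippocampal RNA of 12 rats was hybridised to Illumina RatRef-12 arrays, 1 array per rat. One deposited table holds the mean bead intensity per probe before normalisation and the other the authors' log2 values after quantile normalisation. The submitters' processing notes name limma 3.28.21 and preprocessCore 1.34.0. Whether background was subtracted is not stated in the sources at hand. Detection p-values, chips and probe sequences were not used here.

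The deposited intensities were taken to log2 and quantile normalised, which differed from the authors' log2 values by 0.00037 in the median and 0.254 at most. All probes entered one limma 3.58.1 model (R 4.3.3; lmFit, then eBayes) with the line as factor. P-values are two-sided, Benjamini-Hochberg adjusted over 22523 probes, with a threshold of 0.05. Exact permutation p-values, for 10 probes, are unadjusted. The fit was run on simulated data with planted differences larger than those of the members after quantile normalisation, and without dim arrays. That run does not show what it would find at the members' size of difference. Rat numbers are not shared between lines, so nothing was paired. The rule for named genes took all members, chosen regulators, and the brightest and any called gene of each list. List genes (179 of 200 measured) were matched by symbol, synonym or gene identifier through the GRCr8 gene table, with the brightest probe per gene. Members, lists and tests were chosen with earlier results of these data known. The number of arrays limits the precision. Results for 2 list genes are not reported here.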

Additional observations from a re-analysis of the deposited data

Results flagged for a closer look

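In 3 of 20 groups of 6 values (10 genes in 2 lines) the rat farthest out lay farther from its line, relative to the line's range, than Dixon's 95% critical value for 6 samples, where chance singles out about 1 in 20 groups. *Acadl* read 11.43 in bHR replicate 27, against 11.18 to 11.25 in the other bHR rats. *Cpt2* read 9.25 in bLR replicate 42, against 9.51 to 9.67 in the other bLR rats. *Acadvl* read 10.01 in the same rat, against 9.85 to 9.90 in the others.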

How the results depend on the processing

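The count of members past limma's threshold was 0 under all 13 alternative settings and with each of the 12 rats left out, and the lowest adjusted p of a member was 0.092 (0.17 for *Ucp2*, without bHR replicate 39). The 7 related lists also kept 0 calls with median centring, no scaling and the 9 brighter arrays. Median centring and no scaling turned the sign of 6 members: *Ucp2* (-0.053 and -0.25), *Cpt2* (-0.25 and -0.45), *Acadvl* (-0.17 and -0.37), *Acadl* (-0.205 and -0.40), *Acadm* (-0.25 and -0.45) and *Hadha* (-0.24 and -0.43). Both settings keep each array's own spread: bright probes (95th percentile of raw signal) exceeded dim ones (5th percentile) 31.1 to 33.1-fold on the dim bHR arrays and 52.4 to 67.2-fold on the others. *Slc25a27* turned to +0.0903 on the 9 brighter arrays, +0.0879 with brightness as a block, +0.0752 with each array's brightness as a covariate and +0.0357 on the 9 brighter arrays with median centring. The last setting and no scaling on the 9 arrays were added after seeing the data, and with the latter *Acadl* stood at -0.0004 and *Acadm* at -0.029. Leaving out 1 rat at a time gave +0.22 to +0.33 for *Ucp2* and -0.0185 to +0.0782 for *Cpt2*, which turned without bLR replicate 42, and turned no other member. Cyclic loess, normexp background correction and array weights turned no sign, nor did the authors' values, which are quantile normalised as in the main fit. The filter on dim probes (which left out *Ucp3*) and trended variances leave each difference unchanged, so they could not turn a sign. No paired analysis was possible because no rat number is shared between the lines. Dim probes such as *Ucp3* limit what can be said of low levels.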
